A study of Homo sapiens with 6 samples.

Results

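Laminin and integrin transcripts were compared between MDA-MB-231 cells carrying a control hairpin and cells in which ZNF148 was silenced. The members were chosen by gene name, with earlier results of these data known. Every row whose gene symbol is that of a laminin alpha, beta or gamma chain or an integrin alpha or beta chain was taken. This gave 40 rows for 38 genes, of 24108 rows in all. MDA-MB-231 is an established line of the basal, triple-negative breast cancer type. The shCtr group held 3 samples transduced with a lentiviral hairpin against firefly luciferase, and the shZNF148 group held 3 samples transduced with a hairpin against ZNF148, a zinc finger transcription factor. All 6 samples were transduced for 48 h and then selected for 24 h in 0.5 µg/ml puromycin, so lentiviral infection and drug selection were common to both groups. Each group rests on 1 hairpin, and effects of the ZNF148 hairpin on other transcripts cannot be told apart from effects of ZNF148 loss. Total RNA was sequenced and expression was given as FPKM, fragment numbers scaled to transcript length and to a measure of library size.

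Laminins are large cross-shaped proteins built from 1 alpha, 1 beta and 1 gamma chain, and they form the sheet of the basement membrane on which epithelial cells sit. Integrins are surface receptors made of 1 alpha and 1 beta chain that link such matrix proteins to the cytoskeleton. The integrins alpha3beta1, alpha6beta1 and alpha6beta4 bind laminins, those with the alpha V or alpha 5 chain bind ligands with an RGD sequence such as fibronectin and vitronectin, and alpha1beta1 and alpha2beta1 bind collagens. In breast epithelium alpha6beta4 anchors cells to laminin-332 in hemidesmosomes, and in carcinoma cells the same receptors take part in migration and invasion.

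ZNF148 itself was measured first, as the check of the labels. Its FPKM was 3.72, 4.36 and 4.30 in shCtr replicates 1 to 3 and 0.914, 0.282 and 0.834 in shZNF148 replicates 1 to 3. All shZNF148 samples lay below all shCtr samples, and the group mean was 16.4% of the control. The fold change of ZNF148 was -1.63 on the log2(FPKM + 1) scale, which is used for every fold change here and understates the change of genes with low values (limma, adjusted p = 0.0099). Of the line's markers, VIM averaged 1772 FPKM in shCtr and 1516 in shZNF148, and CD44 averaged 588 and 429. The luminal marker ESR1 was listed at 0 in every sample, and CDH1 did not exceed 0.491. Other luminal markers were present, with EPCAM averaging 10.6 FPKM in shCtr and 9.04 in shZNF148 and GATA3 8.22 and 8.71. The row joined for ERBB2 and MIR4728 had 20.1, 126 and 20.1 FPKM in shCtr and 24.8, 125 and 21.9 in shZNF148, so replicate 2 stood apart in both groups. The leukocyte marker PTPRC and the endothelial marker PECAM1 did not exceed 0.131 FPKM in any sample. The summed FPKM of the leukocyte markers ranged from 1.09 to 1.67 in shCtr and from 3.09 to 6.98 in shZNF148, with LYZ averaging 0.627 and 3.18, while PTPRC was listed at 0 in all shZNF148 samples. The MDA-MB-231 marker sum was also lower in shZNF148 (2564 to 2679) than in shCtr (3143 to 3248). In bulk RNA, fewer cells of a type and less RNA per cell cannot be told apart, and the part that these markers play in the results was not tested.

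Expression of the family was concentrated in few genes. A row was tested when its mean over the 6 samples was at least 1 FPKM, and 20 of the 40 rows met this: 8 laminin rows, 8 integrin alpha rows and 4 integrin beta rows. Among them 17 were lower and 3 higher in shZNF148, with a median log2 fold change of -0.31, whereas the median of all 11777 tested rows was 0.01 and 49.1% of those were lower. At an adjusted p under 0.05, 7 of the 20 rows fell, beside 8.13% of all tested rows, and none rose, beside 5.46%. With a change of more than 1.5-fold in addition, which is what "called" means here, 4 rows were lower (LAMA4, LAMB1, LAMA5 and ITGB4), beside 3.66% of all rows, and 0 rows were called higher, beside 1.83%. At an unadjusted p under 0.05 there were 13 rows, all lower, beside 3981 of the 11777 rows in either direction. The 3 shZNF148 values lay entirely below the 3 shCtr values in 13 of the 20 rows, beside 21.0% of all rows. The opposite order was found in 0 rows, beside 20.0%. Each of those 13 rows had p = 0.1 by exact permutation of the samples (two-sided), the least that 3 samples against 3 can reach. LAMA4, included in these counts, met the filter through its shCtr values alone, with a shZNF148 mean of 0.696 FPKM. At a filter of 5 FPKM, which leaves LAMA4 out, 3 of 18 laminin and integrin rows were called lower, among 309 over all rows. The number of all rows that met this filter is not given here, so no share stands beside that count.

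Single libraries bore on these counts. Leaving out shCtr replicate 1 or shCtr replicate 3 left 0 of the 20 rows at an adjusted p under 0.05 in limma, with 10 and 12 rows at an unadjusted p under 0.05. The loss was seen over all 11777 tested rows too. There 26 and 19 rows were called lower in these fits, against 431 with all samples, and 3 and 3 higher, against 216. Without shCtr replicate 2 the rows that passed were ITGB4 and LAMB1, and without shZNF148 replicate 1 they were ITGB4, LAMB1 and LAMB3. Without shZNF148 replicate 2, 10 rows passed, with ITGA5, LAMA3 and LAMB2 added. Without shZNF148 replicate 3 the same 7 rows passed as with all samples. Over all rows, 142 were called lower without shCtr replicate 2. The number was 206, 393 and 357 without shZNF148 replicates 1, 2 and 3. All laminin rows, ITGAV, ITGA6 and ITGB4 stayed lower in each of these fits. The library of shZNF148 replicate 2 was often at the edge of its group. It was the highest or lowest in 78.6% of all tested rows and in 19 of the 20 tested laminin and integrin rows, highest in 11 and lowest in 8. In any row 2 of the 3 samples are the highest and lowest, and this share was not computed for the other samples.

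**Figure D1:**
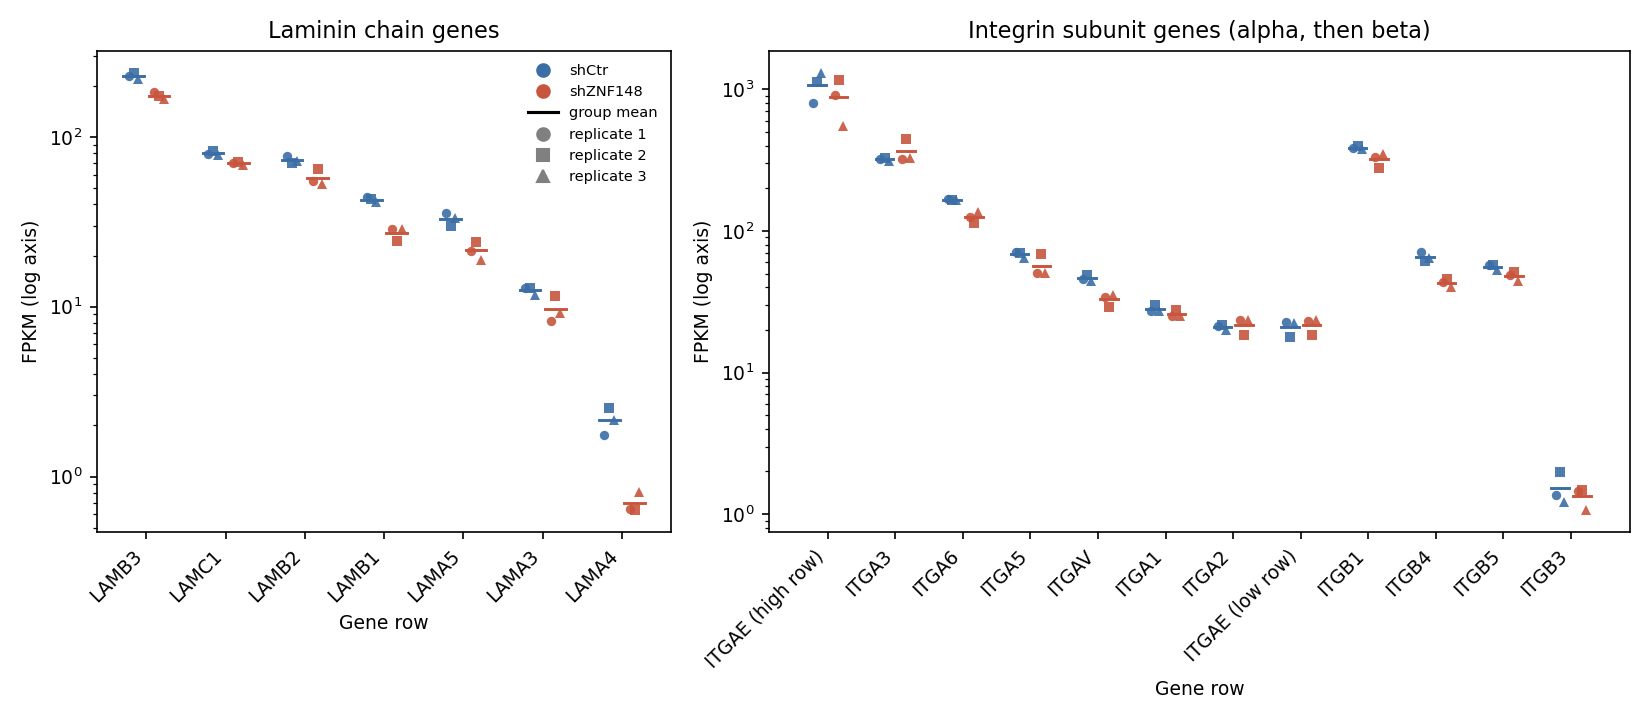
FPKM (log axis) of tested laminin and integrin rows, with a point for each of the 3 shCtr and 3 shZNF148 samples and a bar for the group mean. LAMB3, ITGA3, ITGB1 and 1 row of ITGAE carry the highest values of their classes, and the laminin rows drawn are separated between the groups.

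The promoter windows of the 3 called laminin genes are shown so that the start regions of members that moved the same way can be compared. Each is the 300 bases from 250 before to 50 after the annotated start, 5′ to 3′ on the gene's own strand, from RefSeq on GRCh38.p14. Capitals mark CCCTCCC or its complement GGGAGGG, a 7-letter string of the GC-rich kind that ZNF148 is known to bind, which was searched on both strands. The LAMA4 window lies at chr6:112254518-112254817 on the minus strand, has a GC content of 51.3% and holds 2 matches.
LAMA4: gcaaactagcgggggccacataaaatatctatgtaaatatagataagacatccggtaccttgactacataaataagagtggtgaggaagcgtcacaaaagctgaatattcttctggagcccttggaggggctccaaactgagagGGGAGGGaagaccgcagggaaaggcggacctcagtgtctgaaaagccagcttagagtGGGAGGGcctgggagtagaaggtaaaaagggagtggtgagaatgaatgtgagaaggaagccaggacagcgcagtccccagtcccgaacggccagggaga
The LAMA5 window at chr20:62367263-62367562, minus strand, has a GC content of 82.7% and 1 match.
LAMA5: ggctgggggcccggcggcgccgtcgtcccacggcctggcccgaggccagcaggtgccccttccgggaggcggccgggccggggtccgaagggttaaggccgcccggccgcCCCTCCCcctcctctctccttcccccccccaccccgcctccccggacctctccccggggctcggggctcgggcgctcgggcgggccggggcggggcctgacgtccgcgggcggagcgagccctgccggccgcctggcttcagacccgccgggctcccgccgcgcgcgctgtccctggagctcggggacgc
The LAMB1 window at chr7:108003112-108003411, minus strand, has a GC content of 71.0% and no match.
LAMB1: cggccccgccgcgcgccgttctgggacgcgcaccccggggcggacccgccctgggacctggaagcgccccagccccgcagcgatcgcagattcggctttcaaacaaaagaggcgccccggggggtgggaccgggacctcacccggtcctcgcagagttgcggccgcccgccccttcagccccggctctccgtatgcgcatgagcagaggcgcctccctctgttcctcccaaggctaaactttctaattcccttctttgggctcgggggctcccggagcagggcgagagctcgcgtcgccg
The string occurred in at least 1 window of 29.4% of the 27305 genes in the promoter table and in 26.6% of its 35116 windows. These shares are over all genes, expressed or not, and are not matched to the members for GC content or window number. Of the tested laminin and integrin genes 15 were in the table and 9 had a match. Among the 6 genes in the table that passed the test, LAMA4, LAMA5, LAMB3 and ITGA6 had a match, and LAMB1 and ITGAV had none. Of those that did not pass, ITGA1, ITGA5, ITGB1, ITGB5 and LAMC1 had a match, and ITGA2, ITGAE, LAMA3 and LAMB2 had none. A match describes these letters only, and occupancy by ZNF148 was not measured in these samples.

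All 8 tested laminin rows were lower in shZNF148, and in all 8 the groups did not overlap, beside 21.0% of all tested rows. At the adjusted threshold 4 of them fell, beside 8.13%, and 3 were called, beside 3.66%. Both counts include LAMA4, which met the filter through its shCtr values alone. The median over the 8 rows was -0.36 on the log2 scale. The FPKM summed over the alpha chains averaged 47.8 ± 2.42 (SD, n = 3) in shCtr and 32.1 ± 3.95 in shZNF148, and the sum over the beta chains 345 ± 10.985 and 260 ± 10.1.

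The alpha chain sets which receptors a laminin binds. LAMA5, the alpha chain of laminin-511 and laminin-521, which are common in epithelial basement membranes, had 35.6, 30.0 and 33.3 FPKM in shCtr and 21.4, 24.1 and 18.9 in shZNF148. Every shZNF148 sample was below every control. LAMA5 fell by 0.60 on the log2 scale (SE 0.11, limma adjusted p = 0.0223), to 65.1% of the control mean. The row is joined in the matrix to MIR4758, a microRNA gene within LAMA5, and its value cannot be split between them. The gene lies at chr20:62307955-62367312 on the minus strand (GENCODE 44, GRCh38). LAMA3 gives the alpha chain of laminin-332, the ligand of hemidesmosomes. Its values were 12.9, 12.9 and 11.7 in shCtr and 8.28, 11.6 and 9.23 in shZNF148. The highest shZNF148 value, in replicate 2, lay just under the lowest control. With a log2 fold change of -0.34 (95% interval -0.64 to -0.05), LAMA3 did not pass the test (adjusted p = 0.105). Without shZNF148 replicate 2 it did (adjusted p = 0.0252).

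LAMA4, the alpha chain of laminin-411 and laminin-421 found in mesenchymal and vascular basement membranes, was the least abundant chain tested. It had 1.75, 2.53 and 2.15 FPKM in shCtr and 0.645, 0.635 and 0.808 in shZNF148. The lowest control was above the highest knockdown sample. All shZNF148 values were below 1 FPKM, so LAMA4 met the filter through its shCtr values alone. LAMA4 fell by 0.88 (SE 0.14, limma adjusted p = 0.0182), the lowest log2 fold change among the tested laminin and integrin rows. On the FPKM scale its mean was 32.5% of the control, and adding 0.1 instead of 1 FPKM before taking logs gave -1.49. Adding 5 FPKM gave -0.33. LAMA1 and LAMA2 stayed at or below 0.180 FPKM in every sample.

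The beta chains summed to a higher FPKM than the alpha chains. LAMB3, the beta chain found in laminin-332, had the highest level of any laminin chain, with 229, 239 and 219 FPKM in shCtr and 184, 174 and 167 in shZNF148. The groups were separated by more than the range within either of them. LAMB3 fell by 0.38 (SE 0.07, limma adjusted p = 0.0205), a change below 1.5-fold, and its row is joined to that of MIR4260. It made up 66.4% of the summed beta chain FPKM in shCtr and 67.4% in shZNF148. LAMB1, the beta chain of laminin-111, laminin-411 and laminin-511, had 44.3, 42.9 and 41.1 FPKM in shCtr and 28.6, 24.5 and 28.7 in shZNF148. No knockdown sample approached the controls. LAMB1 fell by 0.64 (SE 0.08, limma adjusted p = 0.0118), the lowest adjusted p of the family. It lies at chr7:107923799-108003213 on the minus strand.

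LAMB2, which takes the place of LAMB1 in laminin-421 and laminin-521, had 76.8, 69.9 and 72.1 FPKM in shCtr. In shZNF148 it had 54.9, 64.5 and 52.7. The groups did not overlap, and replicate 2 was the highest of the knockdown samples. At a log2 fold change of -0.35 its adjusted p of 0.05004 lay just above the threshold, and it was below the threshold in 7 of 16 alternative settings. The ratio of LAMB1 to LAMB2 was 0.587 ± 0.0233 in shCtr and 0.482 ± 0.0892 in shZNF148 without overlap, with the lowest ratio, 0.379, in shZNF148 replicate 2. LAMB4 was listed at 0 in 4 of 6 samples.

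LAMC1, the gamma chain of most laminins, had 79.0, 83.1 and 78.7 FPKM in shCtr and 70.7, 71.1 and 68.6 in shZNF148. The groups were separated, and the row did not pass the test. The log2 fold change of LAMC1 was -0.19 (95% interval -0.32 to -0.06, limma adjusted p = 0.0630). The ratio of LAMA5 to LAMC1 was 0.412 in shCtr and 0.306 in shZNF148, without overlap. LAMC3 was listed at 0 in all samples.

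**Figure D2:**
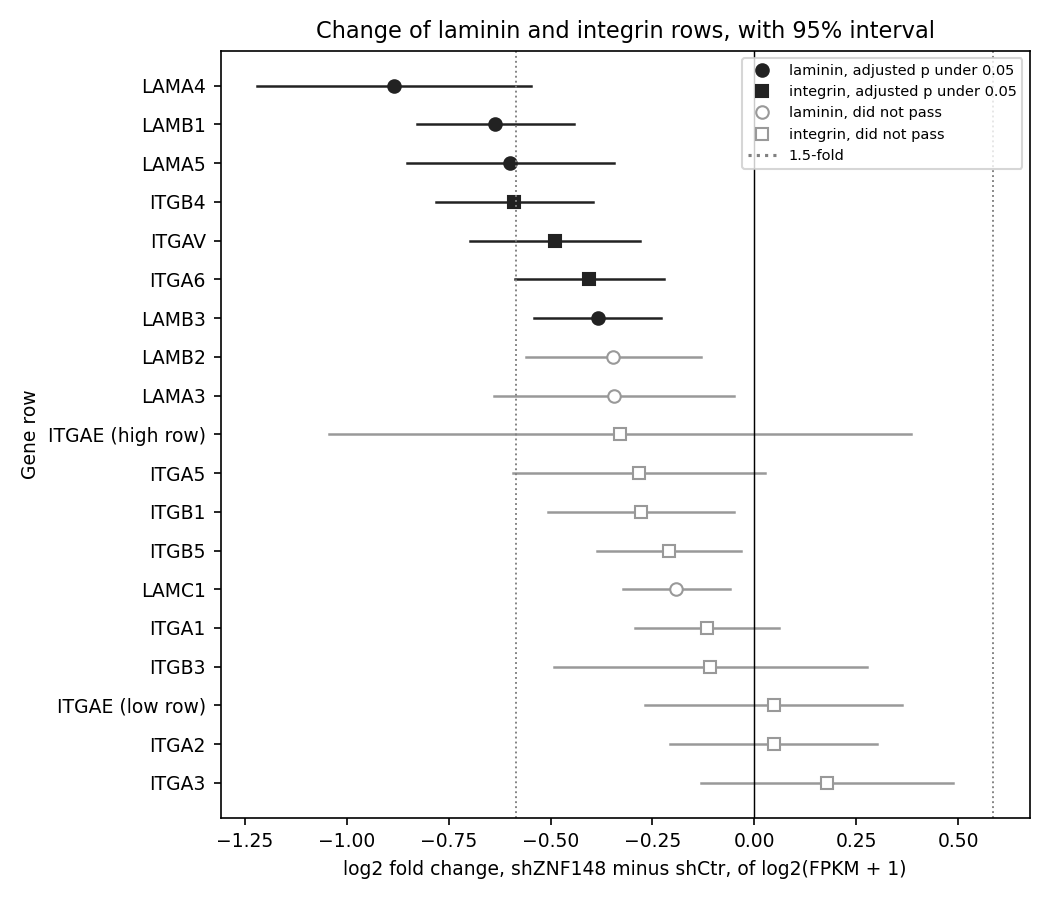
Log2 fold change of tested laminin and integrin rows (shZNF148 minus shCtr, of log2(FPKM + 1)) with its 95% interval. Filled symbols passed an adjusted p of 0.05, circles are laminins, squares integrins, and dotted lines mark 1.5-fold. All 7 filled symbols lie left of 0, while ITGA2, ITGA3 and 1 row of ITGAE lie right of it with intervals that cross 0.

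Among the integrins, the chains of the laminin receptors did not move alike. ITGB4, the beta chain that pairs only with ITGA6 and carries the long tail of hemidesmosomes, had 70.9, 61.2 and 64.5 FPKM in shCtr. In shZNF148 it had 43.7, 45.7 and 40.2. The lowest control was well above the highest knockdown sample. ITGB4 fell by 0.59 (SE 0.08, limma adjusted p = 0.0133), to 66.0% of the control, which is just past 1.5-fold. Under quantile normalization it still passed the test but was no longer past 1.5-fold. The gene lies at chr17:75721328-75757818 on the plus strand.

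ITGA6, the laminin-binding alpha chain shared by alpha6beta1 and alpha6beta4, had 167, 166 and 165 FPKM in shCtr and 126, 114 and 137 in shZNF148. The controls were almost the same, and all knockdown samples lay lower. ITGA6 fell by 0.41 (SE 0.08, limma adjusted p = 0.0252), below 1.5-fold. The ratio of ITGB4 to ITGA6 was 0.395 ± 0.0272 in shCtr and 0.348 ± 0.0540 in shZNF148, and these overlapped. ITGA3, the alpha chain of the other main laminin receptor, had 322, 326 and 311.04 FPKM in shCtr and 324, 448 and 327 in shZNF148. Of the knockdown samples, replicate 2 alone stood far above the controls. The log2 fold change of ITGA3 was 0.18 (95% interval -0.13 to 0.49, adjusted p = 0.370), and without shZNF148 replicate 2 it was 0.03. An increase of up to 0.49 or a decrease of up to 0.13 is thus within the interval.

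The ratio of ITGA3 to ITGA6 was 1.93, 1.97 and 1.89 in shCtr and 2.57, 3.94 and 2.39 in shZNF148. All knockdown ratios exceeded all control ratios, with the highest in replicate 2 (exact permutation p cannot be below 0.1 here). ITGB1, the beta chain shared by most integrins, had 384, 398 and 377 FPKM in shCtr and 334, 276 and 349 in shZNF148. Its groups did not overlap, and replicate 2 was the lowest. At a log2 fold change of -0.28 (95% interval -0.51 to -0.05) it did not pass the test (limma adjusted p = 0.0971). Relative to ITGB1, ITGA3 stood at 0.828 in shCtr and 1.18 in shZNF148, and ITGA6 at 0.430 and 0.393, both without overlap. The ITGA3 to ITGB1 ratio was 0.968, 1.62 and 0.936 in shZNF148 replicates 1 to 3. ITGA3 thus exceeded ITGB1 in replicate 2 only, which raised the mean. The third possible alpha partner for laminins, ITGA7, did not exceed 0.230 FPKM.

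Receptors for RGD ligands had 1 chain that fell. ITGAV, the alpha chain of the vitronectin receptors, had 45.9, 49.0 and 44.5 FPKM in shCtr and 34.3, 29.2 and 35.1 in shZNF148. All knockdown samples were below all controls, and replicate 2 was again the lowest. ITGAV fell by 0.49 (SE 0.09, limma adjusted p = 0.0223), below 1.5-fold. ITGB5, a beta partner of ITGAV, had 57.5, 57.1 and 53.2 FPKM in shCtr and 48.7, 51.5 and 44.6 in shZNF148. These were separated by a narrow gap, with a log2 fold change of -0.21 that did not pass (adjusted p = 0.103). ITGB3, the other classic partner of ITGAV, had a mean of 1.53 FPKM in shCtr and 1.33 in shZNF148 with overlapping samples, and its log2 fold change was -0.11 (adjusted p = 0.667) and 0.02 without shCtr replicate 2.

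ITGA5, the alpha chain of the fibronectin receptor, had 71.3, 69.4 and 64.4 FPKM in shCtr and 50.5, 68.9 and 50.2 in shZNF148. Replicate 2 lay among the controls, and the other knockdown samples lay below them. The log2 fold change of ITGA5 was -0.28 (95% interval -0.59 to 0.02, limma adjusted p = 0.175) with all samples and -0.43 (adjusted p = 0.0153) without shZNF148 replicate 2.

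The collagen-binding alpha chains did not pass the test. ITGA2 had 21.2, 21.6 and 19.9 FPKM in shCtr and 23.4, 18.4 and 23.5 in shZNF148. Replicate 2 lay below the controls and the other knockdown samples above them. The log2 fold change of ITGA2 was 0.05 (95% interval -0.21 to 0.30, limma adjusted p = 0.783), and it turned to -0.01 without shZNF148 replicate 1 or 3. The row joined for ITGA1 and PELO had 27.2, 30.0 and 27.3 FPKM in shCtr and 25.0, 27.7 and 25.0 in shZNF148, with overlap (log2 fold change -0.12, adjusted p = 0.3106). PELO, a ribosome rescue factor, lies inside ITGA1 in the annotation, and the joined value cannot be assigned to either gene.

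ITGAE, an alpha chain known from lymphocytes in epithelia, had 3 rows that disagreed in level. The highest had 797, 1124 and 1312 FPKM in shCtr and 913, 1172 and 554 in shZNF148, which overlap widely (log2 fold change -0.33, limma adjusted p = 0.474). The second had 22.6, 17.8 and 22.4 FPKM in shCtr and 23.2, 18.3 and 23.5 in shZNF148 (log2 fold change 0.05, adjusted p = 0.831). This sign turned when the rows were summed (-0.32), without shCtr replicate 2 (-0.06) and without shZNF148 replicate 1 or 3. The third had a mean of 0.761 FPKM and was not tested. Which transcript each row stands for is not given in the sources used here, so no level of ITGAE was taken from them for the complexes below. The first and second rows stay in the counts of tested rows.

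The other 20 rows were below the filter. LAMC3, ITGA8 and ITGAD were listed at 0 in all samples, 8 rows were at 0 in some samples, and 9 rows were above 0 in all samples with a highest single value of 1.00 FPKM (ITGB2 in shCtr replicate 2). The leukocyte chains ITGAL, ITGAM, ITGAX and ITGA4 and the platelet chain ITGA2B were all among these rows. ITGB6 and ITGB8, beta partners of ITGAV that activate latent TGF-beta, were higher in shZNF148 at these low levels. ITGB6 had 0.102, 0.0469 and 0 FPKM in shCtr and 0.226, 0.274 and 0.317 in shZNF148. ITGB8 had 0.0523, 0.06001 and 0.0622 in shCtr and 0.185, 0.164 and 0.146 in shZNF148. In both the groups did not overlap. Other rows below the filter were also without overlap, LAMA2 and ITGA4 higher in shZNF148 and ITGA11 and ITGA9 lower. The share of such rows over all rows below the filter is not given here. When no filter was applied, ITGB6 passed the test (log2 fold change 0.28, limma adjusted p = 0.0348) and ITGB8 did not (0.14, adjusted p = 0.0562).

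Since a laminin or an integrin needs every chain, the lowest chain in each sample was taken for each complex, as a description with no test. A chain that belongs to several complexes was counted in full in each, so its sharing among them is not seen. All chains were above the filter for 3 of 4 laminin receptors, 4 of 8 RGD receptors and 2 of 4 collagen receptors, and for none of 5 leukocyte receptors. The count of collagen receptors takes the joined row of ITGA1 and PELO as ITGA1. For the laminins with all chains above it, this was the alpha chain in every sample. The lowest chain of laminin-511 and laminin-521 was LAMA5, at 33.0 FPKM in shCtr and 21.5 in shZNF148. For laminin-311 and laminin-321 it was LAMA3, at 12.5 and 9.71 (77.7% of the control), and for laminin-411 and laminin-421 it was LAMA4, at 2.14 and 0.696. These are transcript levels, and assembled protein was not measured.

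On the receptor side, the lowest chain of the ITGA6 and ITGB1 pair was ITGA6, at 75.6% of the control. In the ITGA6 and ITGB4 pair it was ITGB4, at 66.0%. The ITGA3 and ITGB1 pair stood at 320 FPKM in shCtr and 309 in shZNF148, or 96.7%, with ITGB1 in place of ITGA3 as the lower chain in shZNF148 replicate 2. That value gives ITGA3 the full level of ITGB1, although ITGA6, ITGA5, ITGAV, ITGA1 and ITGA2 also pair with ITGB1. The pairs of ITGAV with ITGB1 and with ITGB5 stood at 46.4 and 32.9 FPKM, or 70.8%. ITGA5 with ITGB1 stood at 82.7%, and ITGA2 with ITGB1 at 104%. Ligand and receptor chains that are known to meet, LAMA5 with ITGA6 and ITGB4, thus all had lower transcript levels in the knockdown samples, while ITGA3 did not pass the test in either direction.

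Molecules that work with laminins and integrins were read from 4 lists. Their counts stand beside 8.13% of all tested rows that fell and 5.46% that rose, and beside 3.66% called lower and 1.83% called higher. Of 26 basement membrane partners 16 were tested, of which 8 fell and 1 rose, with 7 called lower and 1 higher and a median log2 fold change of -0.22. The collagen IV chains that form the second network of the basement membrane were among them. COL4A1 had 25.4, 25.3 and 26.1 FPKM in shCtr and 14.9, 8.998 and 14.5 in shZNF148 (log2 fold change -0.98, limma adjusted p = 0.0233). COL4A2 had means of 74.6 and 45.02 (-0.72, adjusted p = 0.0103) and COL4A5 of 1.98 and 0.620 (-0.89, adjusted p = 0.0356). COL4A5 met the filter through its shCtr values alone, and it is included in the 8 rows that fell and the 7 called lower. PXDN, the peroxidase that crosslinks collagen IV, averaged 89.1 and 37.4 FPKM (-1.33, adjusted p = 0.0413). Its lowest sample was shZNF148 replicate 2, at 19.3. AGRN, a laminin-binding proteoglycan, fell by 0.71 (adjusted p = 0.0212), and SDC1, a heparan sulfate co-receptor, fell by 0.93 (adjusted p = 0.0099). HSPG2 (perlecan, -0.60) was the other row called lower. PLEC, which ties ITGB4 to keratin filaments, rose from 177, 161 and 173 FPKM in shCtr to 241, 307 and 231 in shZNF148 (log2 fold change 0.60, adjusted p = 0.0255), while ITGB4 fell. HSPG2 and PLEC were named after their values were seen.

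Of 32 other integrin ligands 19 were tested, of which 5 fell and 2 rose, with 4 called lower and 0 higher, beside the same 3.66% and 1.83%, and a median of -0.28. CYR61 and CTGF are secreted matrix proteins that bind integrins such as those of ITGAV. CYR61 went from 907, 745 and 830 FPKM in shCtr to 405, 329 and 453 in shZNF148 (log2 fold change -1.07, limma adjusted p = 0.0111), and CTGF from a mean of 138 to 68.9 (-1.05, adjusted p = 0.0372). ICAM1, a ligand of leukocyte integrins, averaged 125 and 59.9 FPKM (-1.05, adjusted p = 0.0053), and ICAM5 11.6 and 5.83 (-0.89, adjusted p = 0.0083). Among 39 adaptor and signalling genes 33 were tested, of which 9 fell and 0 rose, with 2 called lower and 0 higher, beside 3.66% and 1.83% of all rows, and a median of -0.08. The called rows were FHL2, a LIM protein that binds integrin tails (mean 45.9 and 17.9 FPKM, -1.37, adjusted p = 0.0243), and the row of APBB1IP, which recruits talin (-0.67, adjusted p = 0.0430). That row is joined to LOC731789.

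Of 13 tetraspanins and surface partners 11 were tested, of which 4 fell and 1 rose, with 2 called lower and 0 higher, against 3.66% and 1.83% of all rows, and a median of -0.14. CD9, a tetraspanin found beside integrins, averaged 127 and 81.9 FPKM (log2 fold change -0.62, limma adjusted p = 0.0108), and PTPRF, a receptor phosphatase, 165 and 103 (-0.68, adjusted p = 0.0099). CD151, a tetraspanin that associates closely with the laminin-binding integrins, was named after its values were seen. It had 180, 194 and 167 FPKM in shCtr and 146, 109 and 131 in shZNF148, and it fell by 0.49 (adjusted p = 0.0409). Over the 4 lists 15 rows were called lower and 1 higher with all samples. Without shCtr replicate 1 or shCtr replicate 3 that became 1 lower and 0 higher, and without shCtr replicate 2 or shZNF148 replicate 1 it became 7 lower and 0 higher. Over all rows, 26, 19, 142 and 206 were called lower in these fits, in the order named, against 431 with all samples.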

How the data were processed

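RNA-seq of total RNA from 3 shCtr and 3 shZNF148 samples was analysed from 1 matrix of FPKM values deposited by the authors. The submitters' processing notes list bcl2fastq 2.17.1.14, TopHat2 2.0.14, Cufflinks 2.2.1 and Cuffnorm 2.2.1 with builds hg18 and hg19, whereas the paper's methods name Salmon and GRCh38. Which of these made the deposited FPKM, and the annotation, are not given in the sources used here. Read counts and absolute depth are unknown. Judged from the steps between low FPKM values, depth ranged from 0.806 (shZNF148 replicate 3) to 1.13 (shZNF148 replicate 1) of that of shCtr replicate 1. Gene symbols and rows were used as deposited, and 0 columns of other samples were left out. Coordinates come from GENCODE 44 and promoters from RefSeq, not from the matrix.

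Rows averaging 1 FPKM or more were modelled on log2(FPKM + 1) by limma 3.58.1 (R 4.3.3), with group as the only term, eBayes with a trend and Benjamini-Hochberg adjustment over all 11777 rows. Called rows had an adjusted p under 0.05 and a change over 1.5-fold. A count model was not used, since FPKM are not counts. Each p-value sets the group difference against the spread between samples of a group. Because no source says that replicates are separate cultures, this spread may be technical. The p-values then would not cover variation between cultures. The fit was tested on simulated data with normal noise and changes of 1 or 2 log2 units planted in 200 rows. It called 89.0% and 98.0% of these, with 5 false calls. All laminin and integrin changes were smaller than 1 log2 unit, so the simulation does not cover them. Members and lists were chosen with earlier results of these data known. Tested members are named; 1 of them and 1 marker stay in the counts and are not reported here. Values per sample are given where it passed or averaged at least 10 FPKM, and up to 6 called rows are named per partner list. A total of 16 alternatives were run.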

Additional observations from a re-analysis of the deposited data

How the results depend on the processing

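Over the tested laminin and integrin rows and 16 alternatives, 273 of 317 comparisons kept direction and side of the threshold, 28 lost the adjusted p of 0.05, 9 gained it and 7 turned sign. The cause was not tested. Only the 7 rows that passed with all samples could lose it. LAMA4 passed in 10 of 15 alternatives, ITGA6, ITGAV and LAMA5 each in 11 of 16, LAMB3 in 12 of 16. ITGB4 and LAMB1 each passed in 14 of 16. With a pseudocount of 5 FPKM no laminin or integrin row (0) was called while 8 passed the test, and over all rows 204 were called lower and 76 higher, against 431 and 216. Leaving out 1 sample at a time gave 19 to 393 rows called lower and 3 to 209 called higher over all rows, 0 to 3 laminin and integrin rows called lower (4 with all samples), 0 to 10 at an adjusted p under 0.05, and 1 to 15 partner rows called lower with 0 to 1 higher. The signs that turned were those of ITGA2 (-0.0109 to 0.16 with 1 sample left out), ITGB3 (-0.19 to 0.0207) and the second ITGAE row (-0.0607 to 0.16, and -0.32 when rows sharing a symbol were summed).

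The groups share replicate numbers, but over all tested rows same-numbered samples did not deviate together (correlations of 0.001, -0.088 and 0.030). In single rows they did: replicate 2 was the highest of both groups in the joined ERBB2 row and the lowest of both in the second ITGAE row. How many rows did so was not counted. In a fit with replicate as a block, 216 rows were called lower and 99 higher, 9 partner rows were called lower, and 2 laminin and integrin rows passed and were called, ITGB4 (limma adjusted p = 0.0457) and LAMB1 (0.0446).

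With 3 samples a group and 1 hairpin, and FPKM without counts, the precision of rows near 1 FPKM such as LAMA4 and ITGB3 is limited by an unknown absolute read depth.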
